A study of Mus musculus with 4 samples.

Results

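The cytosolic ribosomal protein genes of mouse podocytes were examined after 6 h of interleukin-12 (IL-12). The family was taken from the deposited count table as every protein-coding gene named Rps or Rpl with a number, an optional letter a, x or l and an optional further number, a pattern that leaves out the Rps6k kinases. This gave 79 of the 54532 genes in the table, of which 31 encode proteins of the small ribosomal subunit (Rps) and 48 encode proteins of the large subunit (Rpl). RNA was sequenced from the conditionally immortalized mouse podocyte line MPC5, in 2 libraries after IL-12 at 400 ng/ml and 6 h (IL-12 1 and 2) and 2 saline-treated control libraries (control 1 and 2). Both groups are the same line grown in culture, which keeps dividing at a permissive temperature and is differentiated by moving it to a warmer one. Nothing in the labels tells if replicates were cultured separately, so the p-values below measure only the spread between these libraries, which may be technical.

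Each cytosolic ribosome is built from a small subunit that reads the mRNA and a large subunit that joins the amino acids, and ribosomal RNA forms the core of both. The cell needs the proteins in nearly equal numbers, and their mRNAs are among the most abundant in a growing cell. Many of these mRNAs start with a run of C and T bases, the terminal oligopyrimidine (TOP) tract, through which the kinase complex mTORC1 and the protein Larp1 set how actively they are translated. The genes also left many intronless copies (retrocopies) scattered over the genome, and most of these are annotated as pseudogenes.

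The promoter table of RefSeq (GRCm38.p6, 250 bases before to 50 bases after each start) held 60 of the 79 genes. In 34 of these 60 (56.7%) a run of at least 5 pyrimidines lay within 5 bases of an annotated start, against 36.7% of all 27025 genes in the table, and in 17 (28.3%) the start base itself lay inside the run, against 10.9% of all genes. The start of Rps6, the ribosomal protein phosphorylated by the S6 kinases, and the 5 starts that lay inside the longest runs are printed to show such runs. Each line runs from 15 bases before the start through 15 bases from it, the start base is the sixteenth letter, and the capitals mark the pyrimidine run.
Rps6: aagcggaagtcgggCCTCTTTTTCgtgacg
Rpl7a: aTTCCCTCTTCTTTCTTTCTCCagcagccg
Rpl27a: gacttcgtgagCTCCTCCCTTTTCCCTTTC
Rpl34: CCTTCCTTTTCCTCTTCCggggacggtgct
Rpl35: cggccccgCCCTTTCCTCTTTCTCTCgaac
Rpl15: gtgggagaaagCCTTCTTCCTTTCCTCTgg
The run of Rps6 (chr4:86857353-86857382, minus strand) was 10 bases long. The runs were 21 bases for Rpl7a (chr2:26910792-26910821, plus strand), 20 for Rpl27a (chr7:109519180-109519209, plus strand), 20 for Rpl34 (chr3:130730323-130730352, minus strand), 18 for Rpl35 (chr2:39005117-39005146, minus strand) and 17 for Rpl15 (chr14:18270972-18271001, minus strand). The runs of Rpl27a and Rpl34 continue past the printed stretch. Bases before the annotated start are not part of the mRNA, so these run lengths are not lengths of TOP tracts. In Rpl7a and Rpl34 most of the run lies before the start.

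Other short motifs were counted on both strands of the same promoters. The core CCGGAA of ETS factors was present in 33 of the 60 promoters (55.0%, against 16.7% of all genes) and the GC box GGGCGG in 36 (60.0%, against 38.2%). The letters AAGATGG, bound by YY1, were found in 10 (16.7%, against 7.3%), and TATAAA in 6 (10%, against 15.7%). The reverse of the ETS core begins with TTCC, so it can overlap the end of a pyrimidine run. These are matches of letters, and no binding was measured.

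The libraries held 18355379 to 20098012 counts, of which IL-12 1 had the most, and 3 counts correspond to 0.149 to 0.163 CPM (counts scaled to a common library total). The podocyte label was compared with 10 podocyte markers. Actn4, Cd2ap, Synpo and Podxl had at least 10 counts in every library, but the slit diaphragm gene Nphs1 had at most 1 count in a library, Wt1 had 4 to 16, and Ptpro and Cldn5 were at 0 in all 4. The 5 endothelial markers summed to 0.161 to 0.547 CPM per library and the 5 immune markers to 0.107 to 0.654 CPM. The 4 mesangial markers summed to 70.0 to 80.6 CPM, and the 5 tubule markers to 640 and 668 CPM in the controls and 509 and 550 CPM after IL-12, almost all from Lrp2, while Umod and Slc34a1 were at 0. The part of these other markers in the results was not tested. In bulk RNA, fewer cells of a type and less RNA per cell cannot be told apart.

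Ribosomal protein genes took up a slightly larger part of the transcriptome after IL-12. They held 2.41% and 2.49% of all counts in control 1 and 2, and 2.69% and 2.58% in IL-12 1 and 2. The groups did not overlap, with means of 2.45% ± 0.0566 (SD, n = 2) and 2.63% ± 0.0735 (SD, n = 2), although an exact permutation test of 2 against 2 libraries cannot give a p below 0.33. IL-12 1 was the highest library for 65 of the 76 genes that passed the filter on low counts. IL-12 2 was the highest for 8 and a control for 3, and control 1 was the lowest for 55. These genes share the same 4 libraries, so they do not repeat the result independently. The share of all genes with this order is not given. The deepest library was thus also the one with the highest ribosomal protein levels, and the part of depth was not tested.

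**Figure D1:**
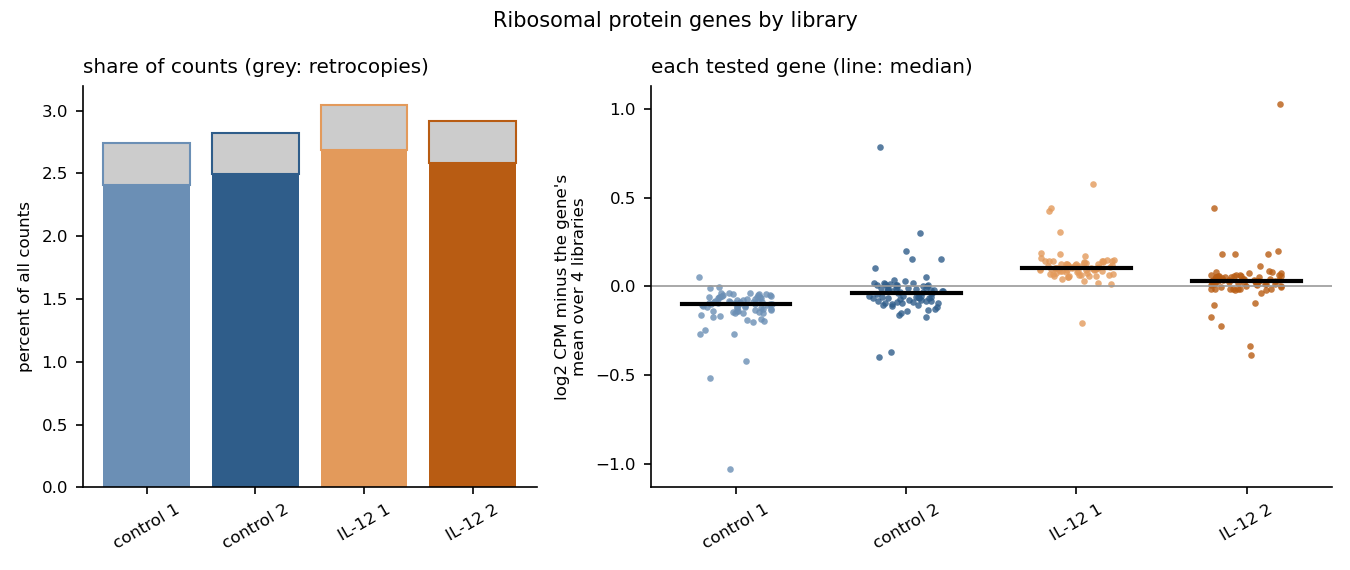
Left, percent of all counts on the ribosomal protein genes (solid bars) and on their retrocopies (grey) in each library; right, log2 CPM of each of the 76 tested genes minus its own mean over the 4 libraries, with a black line at the median. The share of the genes is 2.41% and 2.49% in the controls and 2.69% and 2.58% after IL-12, and a few genes lie far from the rest of their library.

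After IL-12 the mRNAs of 54 ribosomal protein genes rose and none fell, 48 of them by less than 0.25 on the log2 scale. These calls are from the quasi-likelihood test of edgeR, with p adjusted over all genes after Benjamini and Hochberg, at a limit of 0.05. Of all 14095 genes tested, 16.1% were called higher and 14.4% lower. The other 22 of the 76 tested genes were not called in either direction. The median log2 fold change of the family was 0.13, a 1.10-fold rise, with quartiles at 0.09 and 0.16, whereas the median of all genes was -0.0022. The fold change was above 0 for 73 genes, and the lowest value was -0.12 for Rpl17. No gene of the family passed the 2-fold limit of the study, which 0.858% of all genes passed upward and 0.752% downward.

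Genes of both subunits rose. In the small subunit 22 of 31 genes rose, with a median log2 fold change of 0.13, and in the large subunit 32 of 45 tested genes rose, also with a median of 0.13. Values ran from 0.06 to 0.94 in the small subunit and from -0.12 to 0.88 in the large one, and the difference between the subunits was not tested. The libraries of the groups did not overlap, with IL-12 above control, for 59 of the 76 genes, against 31.7% of all genes, and the reverse order was found for none, against 31.2%. Since an abundant mRNA can be called at a small fold change, the family was also set beside all genes of at least 100 CPM on average. That set includes the ribosomal protein genes above the floor, and levels were not matched further. Of the 2560 genes with at least 100 CPM, 32.1% were called higher and 21.6% lower, with a median log2 fold change of 0.03, and of the 70 ribosomal protein genes at that level 51 were called higher and none lower.

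The number of calls depended on single libraries more than the size of the change did. Without IL-12 1 only 24 genes were called higher, without control 1 it was 32, and without control 2 or IL-12 2 it was 59 or 50, while the median log2 fold change stayed between 0.10 and 0.17. Each of these fits leaves 1 group with a single library, which is assumed to vary like the 2 libraries of the other group. The share of all genes called in these fits is not given, so the change in calls may not be particular to the family. Rpl3, Rpl4, Rpl5, Rpl8, Rpl12, Rps6 and Rps13 were among the 24 genes called higher with all libraries and in each of these fits. Leaving out control 1 also gave 3 calls in the lower direction, for Rpl17 (-0.34), Rpl30 (-0.58) and Rpl7a (-0.19).

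**Figure D2:**
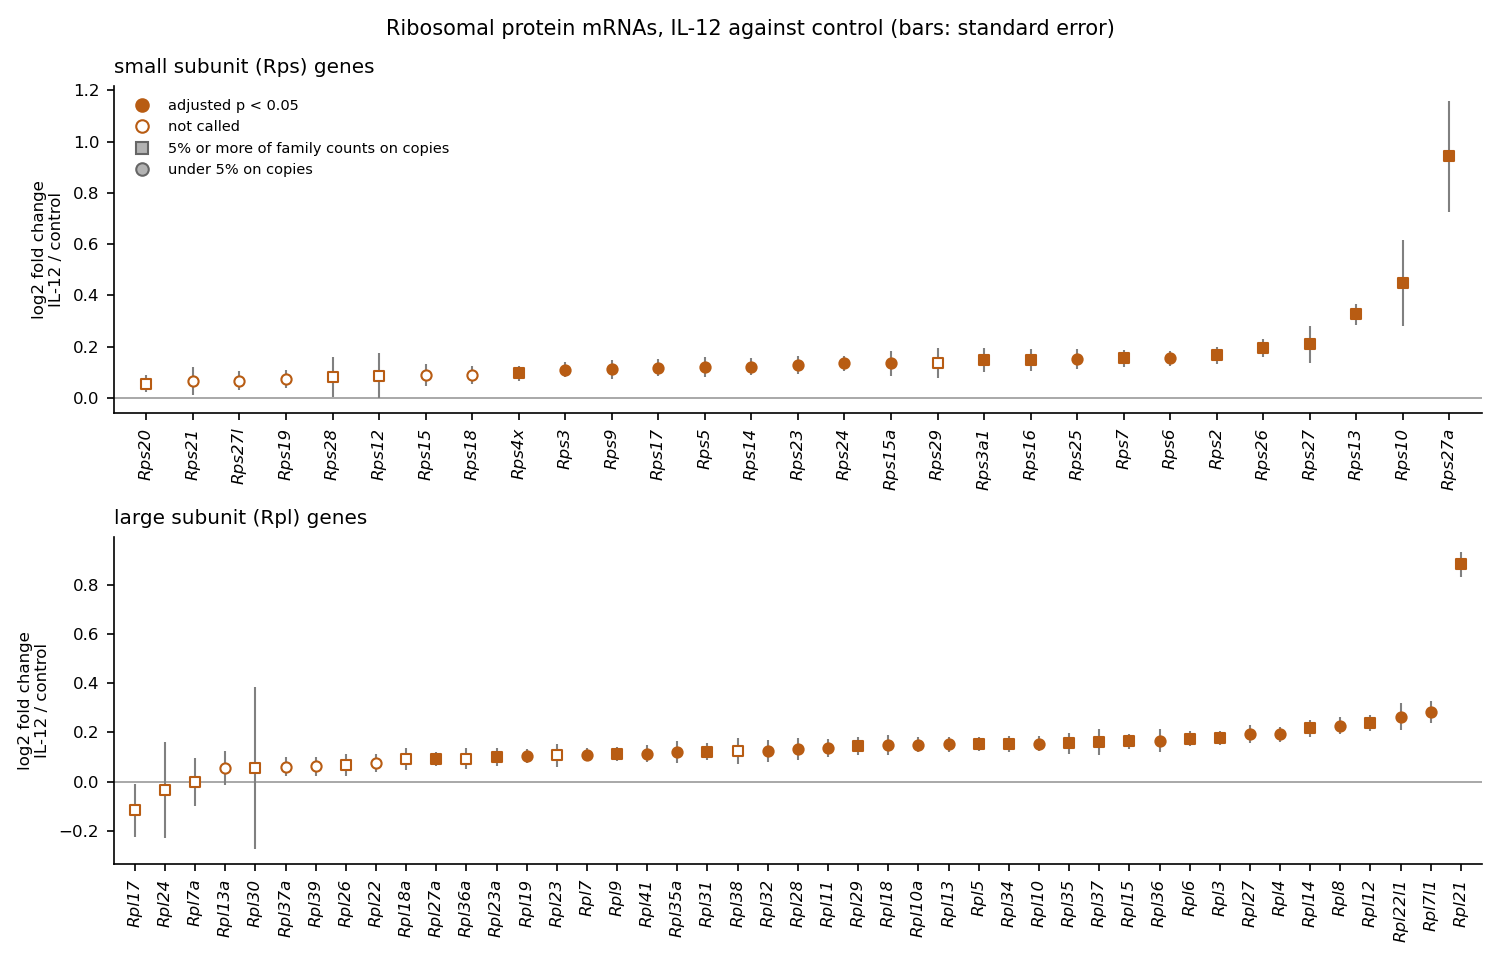
Log2 fold change of the tested ribosomal protein genes, IL-12 against control, ordered within the small subunit (top, 2 of 31 genes not shown) and the large subunit (bottom, 45 genes); bars are the standard error, filled symbols passed an adjusted p of 0.05 in edgeR, and squares are genes with 5% or more of their family counts on retrocopies. Most genes lie between 0.05 and 0.25, while Rps27a (0.94) and Rpl21 (0.88) stand far above, and all 3 values under 0 are squares.

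Per unit of deposited gene length, the highest values belonged to Rpl41, which encodes the smallest protein of the large subunit, Rps15, Rpl36, Rps2 and Rpl4. That length equals the union of the annotated exons for 75 of the 79 genes and ran from 383 to 6270 bases. The order therefore depends on annotation as well as on counts. Rpl36 (383 bases) had 188 CPM in the controls on average, while Rps3 (4483 bases) had 573 CPM and ranked 51st by FPKM. Rpl41 (chr10:128548114-128549305, minus strand) had 538, 562, 619 and 572 FPKM (fragments per kilobase of gene length, scaled to library depth) in control 1, control 2, IL-12 1 and IL-12 2. Rps2 had 477 and 504 FPKM in the controls and 568 and 534 after IL-12. Rpl4 had 450 and 454 FPKM against 535 and 500. In each of these 3 genes both IL-12 libraries lay above both controls. Rps15 had 489 and 534 FPKM against 565 and 523, so that its groups overlapped, and Rpl36 had 471 and 511 against 573 and 529. All of them but Rps15 were called in edgeR's quasi-likelihood test, with log2 fold changes of 0.11 for Rpl41 (adjusted p = 0.017), 0.17 for Rpl36 (adjusted p = 0.0088), 0.17 for Rps2 (adjusted p = 0.000574) and 0.19 for Rpl4 (adjusted p = 7.11e-05). For Rps15 the value was 0.09 (adjusted p = 0.127 in edgeR). The calls of Rpl41 and Rpl36 ended when either of 2 libraries was left out. Without IL-12 1 the log2 fold change of Rpl41 was 0.06 (adjusted p = 0.312 in edgeR) and that of Rpl36 0.11 (adjusted p = 0.219 in edgeR), and without control 1 they were 0.09 (adjusted p = 0.115 in edgeR) and 0.11 (adjusted p = 0.122 in edgeR). Over 18 alternatives the adjusted p ranged from 0.00184 to 0.312 for Rpl41 and from 0.000302 to 0.219 for Rpl36, with all of these ends from edgeR. Rps2 also lost its call without IL-12 1 (0.12, adjusted p = 0.0572 in edgeR), with a range from 9.81e-08 in edgeR to 0.0737 in limma, and Rpl4 was called in all 18.

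The median of the family was 161 and 167 FPKM in the controls and 182 and 178 FPKM after IL-12. FPKM values formed a near-continuous series: of the 75 pairs of neighbours in the order of mean FPKM, 7 had 4-library ranges that did not overlap. The lowest tested genes by FPKM were Rpl21 (mean 29.1 FPKM), Rpl13a (16.9), Rpl30 (6.56), Rpl24 (5.77) and Rps10 (2.80). For Rpl21, Rpl30, Rpl24 and Rps10, between 54.8% and 93.9% of the counts of the gene and its copies together fell on retrocopies, and for Rpl13a it was 2.2%.

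Of the genes described for a role beyond the ribosome's structure, Rpl5, Rpl11, Rps6 and Rps3 were called higher with all libraries. Rpl5 and Rpl11, which bind the 5S ribosomal RNA and together can bind and hold back the p53 ligase Mdm2, both rose. Rpl5 (chr5:107900502-107909005, plus strand) had 630 and 623 CPM in the controls and 696 and 696 after IL-12, a log2 fold change of 0.15 (SE 0.03, adjusted p = 0.000253 in edgeR). Rpl11 had 318 and 337 CPM against 367 and 353, a log2 fold change of 0.14 (SE 0.04, adjusted p = 0.00594 in edgeR). In both genes the groups were apart. Rps6 had 515 and 509 CPM against 575 and 564, a log2 fold change of 0.15 (adjusted p = 0.000386 in edgeR). Rpl5 and Rps6 were called in all 18 alternatives. Rpl11 lost its call without control 1 (log2 fold change 0.10, adjusted p = 0.114 in edgeR) and without IL-12 1 (0.11, adjusted p = 0.121 in edgeR), and its adjusted p over the alternatives ran from 0.000328 to 0.121 in edgeR.

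Rps3, a small-subunit protein that also acts in DNA repair and NF-kappaB signalling, had 559 and 587 CPM in the controls and 619 and 618 after IL-12, a log2 fold change of 0.11 (adjusted p = 0.00863 in edgeR). Its call held in 1 of the 4 fits that leave out a library and was lost without control 1 (0.08, adjusted p = 0.168 in edgeR), without IL-12 1 (adjusted p = 0.0759 in edgeR) and without IL-12 2 (adjusted p = 0.0548 in edgeR). Over all 18 alternatives its adjusted p ran from 0.00257 to 0.168 in edgeR, and 13 called it. Rps19, the gene most often mutated in Diamond-Blackfan anaemia, had 349 and 360 CPM against 387 and 360, and was not called (log2 fold change 0.07, adjusted p = 0.134 in edgeR). Rpl13a, known from the silencing of inflammatory mRNAs in macrophages, had 34.6 and 35.5 CPM against 37.5 and 35.4, and was not called either (log2 fold change 0.06, adjusted p = 0.6 in edgeR). The groups of Rps19 and Rpl13a overlapped.

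Some ribosomal proteins have a paralog whose name carries an l. Rpl3l of striated muscle had 1 to 3 counts per library, and Rpl10l and Rpl39l of the testis had none. With under 20 counts over the 4 libraries these 3 genes were not tested, and their partners were present at 189 (Rpl3), 245 (Rpl10) and 147 (Rpl39) FPKM on average. Rpl22l1 had 67.4 and 63.6 CPM in the controls and 76.1 and 81.4 after IL-12, with no overlap, and rose by a log2 fold change of 0.26 (SE 0.05, adjusted p = 0.00088 in edgeR). Its partner Rpl22 had 221 and 219 CPM against 229 and 235, a log2 fold change of 0.08 that was not called (adjusted p = 0.118 in edgeR). Rpl7l1, a paralog of Rpl7, had 103 and 103 CPM against 122 and 129, and rose by 0.28 (SE 0.05, adjusted p = 9.56e-05 in edgeR). Rpl7 had 645 and 643 CPM against 702 and 688 and rose by 0.11 (adjusted p = 0.00479 in edgeR), a call that was lost without IL-12 1 (0.10, adjusted p = 0.0544 in edgeR, with a range from 0.00328 to 0.0659 over the 18 alternatives). The difference in change within a pair was not tested. Under 2% of the family counts of Rpl22l1 and Rpl7l1 fell on copies.

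Rps13, a small-subunit protein, was among the 6 largest called rises, and its value changed little when the copies described below were added (0.30). It had 135 and 140 CPM in the controls and 170 and 175 after IL-12 (chr7:116331505-116334195, minus strand), a log2 fold change of 0.33 (SE 0.04, adjusted p = 6.17e-06 in edgeR). The groups were apart. Rpl12, a protein of the large-subunit stalk base, rose by 0.24 (368 ± 10.7 against 434 ± 2.52 CPM, SD, n = 2 in each group). Rpl8 rose by 0.23 (509 ± 22.9 against 595 ± 18.3 CPM) and Rpl14 by 0.22 (317 ± 1.89 against 369 ± 15.3 CPM), and for each of these genes both IL-12 libraries lay above both controls.

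The largest value of the family came from 1 library. Rps27a (chr11:29545846-29548109, minus strand), which encodes ubiquitin fused to a small-subunit protein, had 1691 and 1711 counts in the controls and 2050 and 4410 in IL-12 1 and 2. On the CPM scale this was 89.3, 90.7, 104 and 244. IL-12 2 was thus far above the other 3 libraries. The log2 fold change was 0.94 (SE 0.22, adjusted p = 0.00246 in edgeR). Without IL-12 2, where the lone IL-12 library is assumed to vary like the controls, it was 0.21 (adjusted p = 0.0212 in edgeR), without IL-12 1 it was 1.44, and in DESeq2 with all libraries the adjusted p was 0.295. It was called in 15 of 18 alternative settings, with adjusted p from 2.39e-68 in edgeR with a replicate block and a length and GC correction to 0.295 in DESeq2.

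Retrocopies took a measurable part of the counts. A search of the annotated transcripts found 1115 other genes that matched a ribosomal protein mRNA at 90% identity or more over at least 50% of their length, of which 504 had a count, 474 of them annotated as pseudogenes. They held 0.328% to 0.358% of all counts. At least 1 counted copy was found for 74 of the 79 genes. How reads that match several places were assigned is not given in the sources used here, so counts on a gene and on a near-identical copy are uncertain. Stretches of coding sequence are printed beside a copy for some genes whose values moved when all copies were added. Each pair is aligned over 30 bases, and the capitals mark the bases that differ.
Rpl21: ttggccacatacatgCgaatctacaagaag
Gm12411: ttggccacatacatgTgaatctacaagaag
Rpl30: cgtgctgggctacaaGcagactctgaagat
Gm12191: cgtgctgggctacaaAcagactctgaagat
Rps10: aggctggggctggctCAgccactgagttcc
Rps10-ps2: aggctggggctggctGGgccactgagttcc
Rps27 and Rps27rt: gatgctataaaatcaccacggtctttagcc
The stretches of Rpl21 (chr5:146834459-146834488, plus strand) and Gm12411 (chr4:45550095-45550124, plus strand) differ at 1 base, as do those of Rpl30 (chr15:34442692-34442721, minus strand) and Gm12191 (chr11:49678948-49678977, minus strand). Rps10 (chr17:27631205-27631234, minus strand) and Rps10-ps2 (chr16:20822190-20822219, minus strand) differ at 2. Over the whole alignment, Gm12411 differs from the coding sequence of Rpl21 at 4 of 483 bases, Gm12191 from Rpl30 at 1 of 348, and Rps10-ps2 from Rps10 at 4 of 456. The 255 coding bases of Rps27 (stretch at chr3:90213015-90213044, minus strand) and of Rps27rt (chr9:114982563-114982592, minus strand) are identical.

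Rpl21 shows how much copies together can matter, and the part of any single copy was not tested. Rpl21 itself had 1251 and 1381 counts in the controls and 2541 and 2320 after IL-12, with no overlap, a log2 fold change of 0.88 (SE 0.05, adjusted p = 3.16e-10 in edgeR). Its copy Gm12411 had 272 and 239 counts in the controls and 39 and 11 after IL-12, the opposite direction. The copy Rpl21-ps15 had 1612, 1602, 1590 and 1286 counts. When all copies were added to their gene and the fit was repeated, the log2 fold change of Rpl21 was 0.23 (SE 0.04, adjusted p = 9.73e-05 in edgeR). Copies held 54.8% of the counts of this family. It was called higher in all 18 alternative settings, with log2 fold changes from 0.23 to 0.96.

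Rps10 and Rps27 lost their calls with copies added, and of 18 alternative settings they were called in 7 and 10. Rps10 had 100, 107, 169 and 115 counts and a log2 fold change of 0.45 (adjusted p = 0.0496 in edgeR), but 93.9% of its family counts fell on copies, and the summed value was 0.17 (adjusted p = 0.0522 in edgeR). Rps27 had 2620 and 3252 counts in the controls and 3325 and 3462 after IL-12. Rps27rt had 1739 and 985 against 1390 and 798, low where Rps27 was high within each group. The log2 fold change of Rps27 was 0.21 (adjusted p = 0.0338 in edgeR) alone and 0.06 (adjusted p = 0.23 in edgeR) with copies. Its paralog Rps27l, with 231 and 239 CPM against 249 and 243 and almost no counts on copies, had 0.07 (adjusted p = 0.177 in edgeR).

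Rpl30, a large-subunit protein, gained a call. It had 163 and 573 counts in the controls and 520 and 252 after IL-12, a spread between replicates far wider than the difference between groups (log2 fold change 0.06, SE 0.33). Its copy Gm12191 had 2863, 2808, 3523 and 3015 counts, so that 89.1% of the family counts fell on copies. The sum gave a log2 fold change of 0.18 (SE 0.05, adjusted p = 0.0131 in edgeR).

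**Figure D3:**
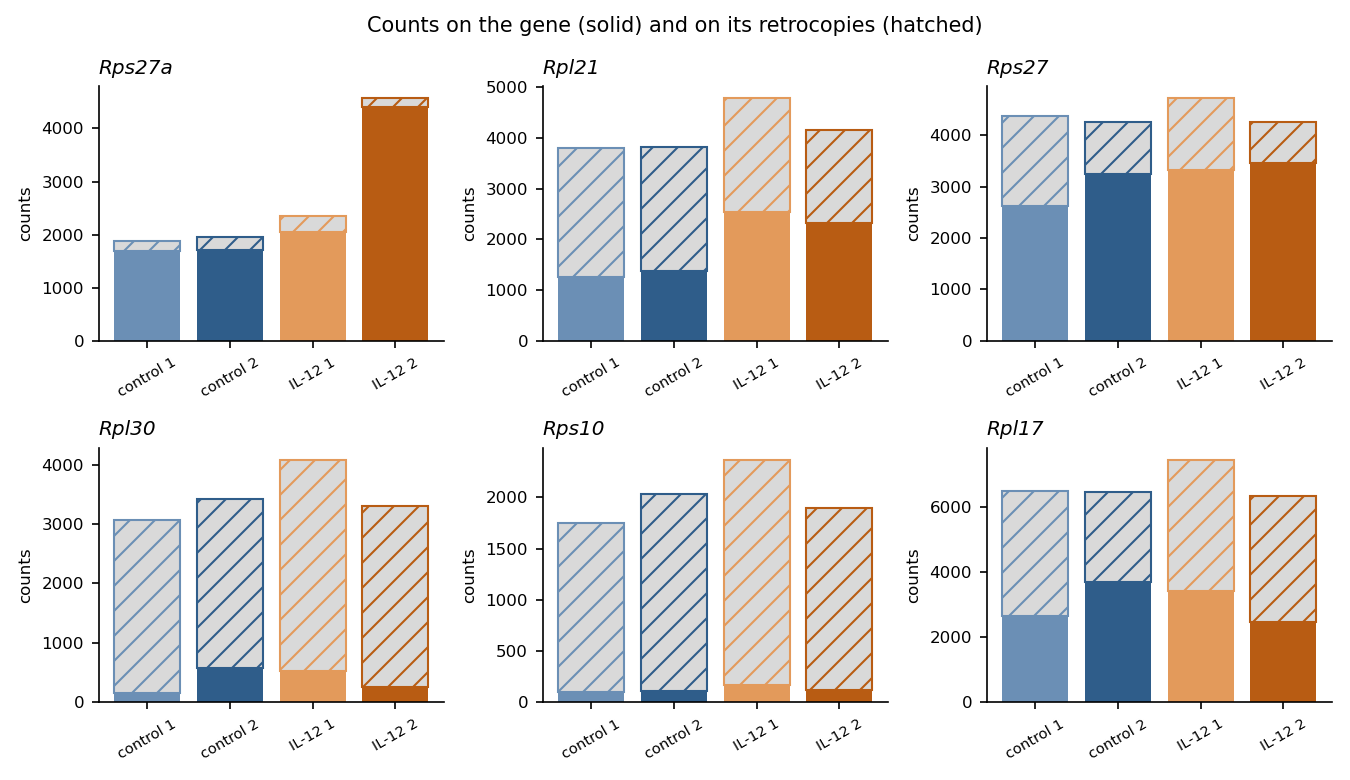
Counts on 6 ribosomal protein genes (solid) and on their retrocopies (hatched) in each library. The solid part differs between replicates for Rpl30 (163 and 573 counts in the controls) and Rpl17 (2646 and 3706), where the whole bars are nearer to each other; Rps27a in IL-12 2 (4410 counts) is high with few counts on copies.

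Replicates lay far apart in some genes. Replicates differed by more than 0.3 on the log2 scale within a group for 8 genes, and all 8 had 8.4% or more of their family counts on copies. High shares also occurred in genes with closer replicates, such as Rps3a1 (77.1%), Rpl26 (54.2%) and Rpl6 (24.1%). Among the 8, Rpl24 had 81 to 143 counts per library and Rps10 had 100 to 169. The part of copies and of low counts in this spread was not tested. In 6 of them, Rps12, Rpl17, Rpl7a, Rpl30, Rpl24 and Rps10, control 2 was above control 1 and IL-12 2 was below IL-12 1. This order was not particular to them. Rpl41, Rps15 and Rpl36, with 0.1% to 1.7% of family counts on copies, also had it. Over the 76 tested genes, control 1 was the lowest library for 55 and IL-12 1 the highest for 65. Rpl17 had 2646, 3706, 3420 and 2468 counts while its copy Rpl17-ps10 had 2238, 1208, 2194 and 2348, lowest where Rpl17 was highest. With copies added, the log2 fold change of Rpl17 went from -0.12 to 0.09 (adjusted p = 0.0763 in edgeR). Its sign and those of Rpl7a, Rpl30, Rpl24 and Rps12 turned with the library left out. So did those of Rps28 (0.08 with all libraries, lowest -0.07) and Rps21 (0.07, lowest -0.015), which were not called.

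Over the whole family, copies changed few values. With copies added, 54 genes were again called higher and none lower, against 16.4% of all genes called higher in that fit, and 51 of them were the same genes. The median log2 fold change was 0.13, with quartiles at 0.10 and 0.16. The value moved by more than 0.1 for 5 genes, which were Rpl21, Rps10, Rps27, Rpl30 and Rpl17. The 38 tested genes with under 5% of family counts on copies lay between 0.06 and 0.28, of which 29 rose, and the 38 with more lay between -0.12 and 0.94, of which 25 rose.

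**Figure D4:**
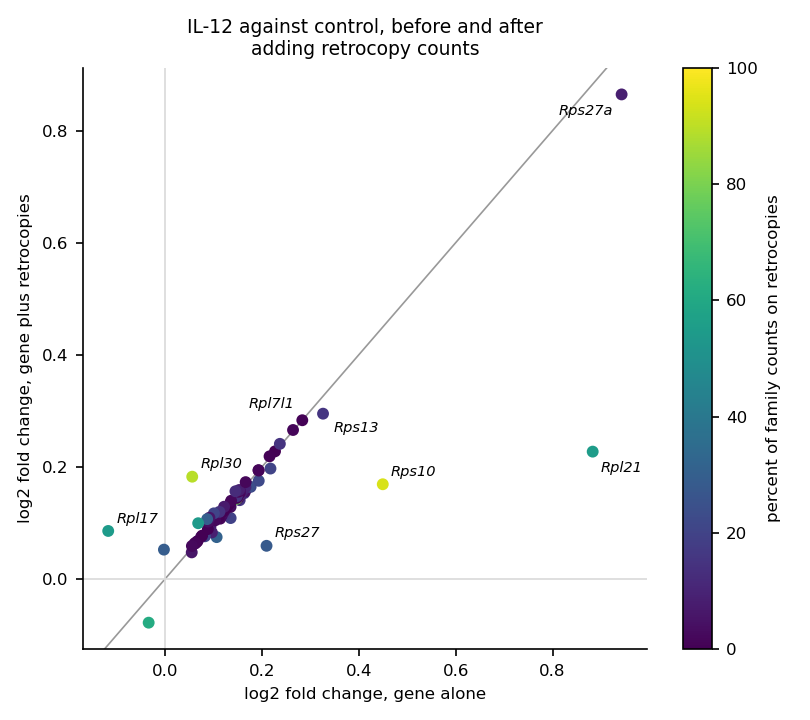
Log2 fold change of each tested ribosomal protein gene alone (horizontal) and with the counts of its retrocopies added (vertical); the grey diagonal marks equal values and the colour gives the percent of family counts on retrocopies. Most genes lie on the diagonal, and Rpl21 moves from 0.88 to 0.23 and Rps10 from 0.45 to 0.17.

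Small nucleolar RNA (snoRNA) genes, which guide the modification of ribosomal RNA and are cut from introns, lay inside 28 of the genes, 54 snoRNA genes in all. Of these 28 hosts 19 rose, with a median log2 fold change of 0.15. In the whole family 54 of 76 tested genes rose (median 0.13), and of all genes 16.1% were called higher. For 13 genes another gene with over 100 counts overlapped on the other strand. The counts of the overlapping gene were largest for Rpl28 (Ube2s, 11521 counts over the 4 libraries against 25856 for Rpl28) and Rpl35 (Arpc5l, 5354 against 14942), and strand use in the counting is not given in the sources used here.

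The promoter features were set beside the calls without a test. Of the 33 tested genes with a pyrimidine run near a start 26 rose, with a median log2 fold change of 0.15, and of the 24 without one 14 rose, with a median of 0.11. The medians had the other order for the stricter feature. With the start base inside the run 13 of 17 rose (median 0.133), and without this 27 of 40 rose (median 0.142). For CCGGAA it was 25 of 32 (median 0.15) against 15 of 25 (median 0.11), for GGGCGG 27 of 35 (0.15) against 13 of 22 (0.12) and for AAGATGG 7 of 10 (0.14) against 33 of 47 (0.13). Of the 6 genes with TATAAA 2 rose, and of the 51 without it 38 rose.

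A further set of cytosolic ribosomal proteins has names that the pattern missed. Of 8 such genes, 5 rose and none fell, beside 16.1% and 14.4% of all genes, with a median log2 fold change of 0.13. Rpsa, a small-subunit protein also known as the laminin receptor, had 815 and 805 CPM in the controls and 919 and 893 after IL-12. Rack1, a scaffold on the small subunit, had 622 and 633 CPM against 716 and 681. Both rose, with log2 fold changes of 0.16 (adjusted p = 0.000134 in edgeR) and 0.15 (adjusted p = 0.000587 in edgeR). Without control 1, or without IL-12 1, 3 of the 8 genes were called.

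Genes that assemble ribosomes also rose. The counts of the lists below stand beside 16.1% of all genes called higher and 14.4% called lower. Of 60 ribosome biogenesis factors 55 rose and none fell, with a median log2 fold change of 0.52 and values from -0.08 to 0.88. Nucleolin (Ncl), which acts on nascent ribosomal RNA, went from 535 ± 8.27 to 778 ± 19.4 CPM (SD, n = 2) and Mybbp1a, a nucleolar factor, from 255 ± 2.81 to 394 ± 2.76 CPM (SD, n = 2). Of 31 initiation factors 22 rose and none fell, with a median of 0.22. Among them were the helicase Eif4a1 (log2 fold change 0.38) and Eif6 (0.55), which keeps the large subunit from joining too early. Of 17 elongation factors and other mRNAs known to start with a TOP tract 11 rose and none fell, with a median of 0.17, among them Eef1g (0.23) and Npm1 (0.43). The difference between these lists and the ribosomal protein genes was not tested.

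Mitochondrial ribosomal proteins belong to a separate ribosome. Of 77 tested genes 24 rose and 1 fell (16.1% and 14.4% of all genes were called in these directions), with a median log2 fold change of 0.13. Mrpl3 (0.48) and Mrps2 (0.43) had the smallest p among those that rose, and Mrps11 fell by 0.32. Without IL-12 1, 7 of these genes were called higher.

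Regulators were called in both directions. Their lists mix activators with inhibitors, so the counts and medians cannot show in which direction a pathway moved. Of 33 genes of mTORC1 and of TOP mRNA control 7 rose and 10 fell, beside 16.1% and 14.4% of all genes, with a median log2 fold change of -0.0018. Myc, which drives transcription of ribosome genes, rose by 0.60 and Cnbp, a protein that binds TOP mRNAs, by 0.40. Mxd4, a partner of Max that opposes Myc, fell by 0.75 and Sesn3, an inhibitor of mTORC1, fell by 0.44. Of 15 genes of the p53 pathway 5 rose and 4 fell, beside the same 16.1% and 14.4%, with a median of -0.0042. Mdm2, the ligase that free Rpl5 and Rpl11 bind, rose by 0.15 and Mdm4 fell by 0.31. Aen rose by 0.29 and Trp53inp1 fell by 0.34. Without control 1 or IL-12 1, 3 or 2 of the p53 pathway genes were called higher.

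**Figure D5:**
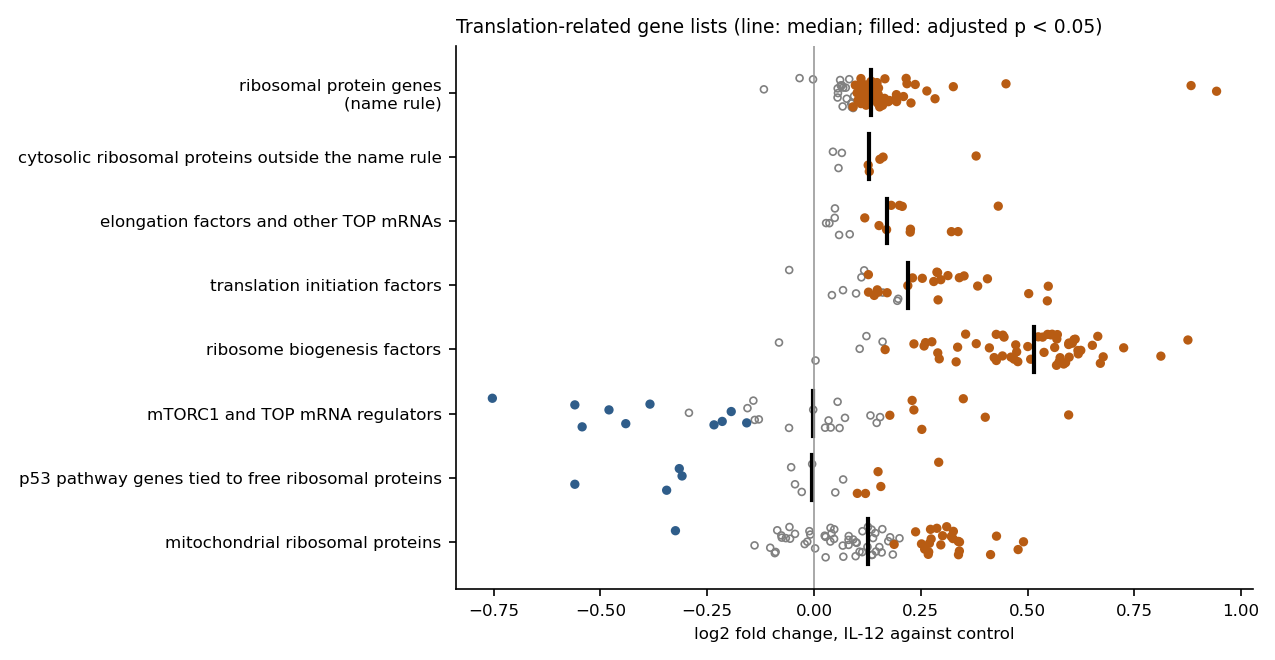
Log2 fold change, IL-12 against control, of every tested gene of the ribosomal protein family and of 7 translation-related lists; filled points passed an adjusted p of 0.05 in edgeR (orange higher, blue lower) and the black line is the median. The ribosomal protein genes crowd around 0.13, the biogenesis factors around 0.52, and the mTORC1 and p53 lists spread to both sides of 0.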

How the data were processed

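Total RNA of MPC5 podocytes was sequenced on an Illumina platform, and 2 libraries per group were used as the labels group them. The authors deposited raw counts per gene and FPKM values, and a factor per library (0.985 to 1.02) links both. The submitters' processing notes name HISAT2, StringTie and mm9, with no versions, while the deposited coordinates equal GENCODE M21 (GRCm38) for 98.3% of 54409 shared genes and for 77 of the 79 ribosomal protein genes. Coordinates are therefore given as GRCm38.

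Counts were tested in R 4.3.3 with edgeR 4.0.16 (filterByExpr with a minimum of 10 counts and 15 in total, TMM scaling, quasi-likelihood test, Benjamini-Hochberg over 14095 genes). CPM are TMM-scaled. The standard error is the log2 fold change divided by the root of F. DESeq2 1.42.0 and limma 3.58.1 on log2(FPKM + 1) served as alternatives, with other scalings, filters, a length and GC correction and each library left out. Retrocopies were matched with BLAST 2.17.0. Figures were drawn with matplotlib 3.10.9. The scripts were tested on simulated counts.

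The members, gene lists and tests were chosen with earlier results of these data known. Named are the genes with the 5 highest and 5 lowest FPKM, the 6 largest called rises without overlap (no called gene fell), the paralogs with an l, 7 genes chosen for their role, and the 2 smallest p per direction of each list; others were named after their values were seen. Genes without a promoter entry are not analysed there, and a few genes are not reported by name here.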

Additional observations from a re-analysis of the deposited data

How the results depend on the processing

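The calls of the ribosomal protein genes were recomputed under 18 alternatives. The 54 genes called higher became 29 with scaling by total counts only, 33 without a filter on low counts, 23 by limma on log2(FPKM + 1) and 35 at an adjusted p of 0.01, and ranged from 24 to 59 when each library was left out, where the lone library of a group is assumed to vary like the other group. DESeq2 called 41. The length and GC correction called 50, against 17.6% of all genes called higher in that fit. For the other settings named here the share of all genes called is not given. Of the 54, 22 were called in every alternative. The genes called lower, 0 in the full fit, numbered 1 under the replicate block with length and GC correction and 0 to 3 when a library was left out. The genes past 2-fold, also 0, numbered 0 to 1 without a library (Rpl30 without control 2, Rps27a without IL-12 1), and 2 at a limit of 1.5-fold. The median log2 fold change stayed between 0.09 and 0.17. The share of counts rose by 0.182 percentage points, or 0.13 to 0.234 without a library.

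The log2 fold change of Rpl30 turned to -0.58 without control 1 and -0.48 without IL-12 1 (range -0.58 to 1.23 over the libraries left out), and that of Rpl24 to 0.09 without control 2 and 0.26 without IL-12 2 (range -0.43 to 0.26). That of Rpl17 turned to 0.15 without control 2 and 0.04 without IL-12 2 (range -0.34 to 0.15), to 0.084 with named pseudogenes added and to 0.086 with all aligned copies added. That of Rpl7a, -0.0022 in the full fit, turned to 0.21 without control 2 and 0.16 without IL-12 2 (range -0.19 to 0.21), to 0.040 and 0.052 with named or aligned copies added, and to 0.0001 with the replicate block and by limma. That of Rps12 turned to -0.10 without control 1 and -0.06 without IL-12 1 (range -0.10 to 0.30). That of Rps28 turned to -0.050 without control 1 and -0.0715 without IL-12 1 (range -0.0715 to 0.2308), and that of Rps21 to -0.015 without control 2 and -0.0074 without IL-12 1 (range -0.015 to 0.1531). Of the 19 genes named from the other lists, none changed sign and Mrps11 alone lost its call, in 3 settings. Adding aligned copies was chosen after seeing the data. For the lists, the ribosomal proteins outside the naming pattern had 3 genes called higher without a filter, 3 by DESeq2, 2 by limma on log2(FPKM + 1) and 3 to 5 without a library. Biogenesis factors called lower were 1 with total counts only. p53 pathway genes called higher were 3 with total counts only, 3 without a filter, 3 by limma and 2 to 4 without a library. Mitochondrial ribosomal proteins called higher were 12 by DESeq2 and 7 to 23 without a library, and those called lower were 2 with total counts only, 0 by DESeq2, 0 by limma and 0 to 1 without a library. The cause was not tested in these cases, except that a stricter threshold allows fewer calls by construction.

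Deviations of same-numbered libraries had a correlation of -0.0267 over all genes and of -0.553 over the family. In the family they thus tended to go in opposite directions. With 2 libraries per group, these correlations cannot decide if same-numbered libraries were handled together. With the replicate block, 54 ribosomal protein genes were called higher, 52 of them the same. With 2 libraries per group, levels near 0.149 to 0.163 CPM cannot show a difference, and a replicate spread like that of Rpl30 hides changes of the family's size.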
